A study of Mus musculus with 4 samples.

Results

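Cells of the posterior eye of Vldlr-/- mice were compared with those of wild-type mice at 1 month of age, in the whole library and separately in lymphoid, stromal, rod and retinal pigment epithelium (RPE) barcodes. Droplet single-cell RNA sequencing was used, in which each barcode stands for 1 droplet and each UMI for 1 captured molecule. The RPE-choroid was taken from WT and Vldlr-/- animals aged 1 month and 2 months, the neural retina was lifted off, and the tissue was digested and depleted of dead cells. Each genotype and age is 1 library. The strain, the sexes, the number of animals pooled, the Vldlr allele and the part of the gene it removes are not given in the sources used here. At 1 month 1549 of 1696 wild-type barcodes and 1819 of 2073 knockout barcodes passed the filter of 300 or more genes and no more than 30% mitochondrial UMIs, so that 3368 of the 6555 barcodes kept in the series belong to this comparison. Because each side is 1 library, no test was possible. Intervals given with a ratio cover counting error only, they are no replicate check, and differences between animals, between dissections and between genotypes cannot be told apart.

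VLDLR is an endocytic receptor for triglyceride-rich lipoproteins and for the signalling protein reelin. Mice without it grow abnormal vessels from the outer retina towards the RPE, and they are used as a model of neovascular macular degeneration, the setting named in the series title. The RPE is the pigmented layer that recycles visual pigment and digests shed photoreceptor tips, and the choroid beneath it holds vessels, fibroblasts and immune cells. Rods are the photoreceptors of the neural retina. They are not part of the labelled tissue, and their barcodes are carried over from the retina that was removed.

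Each barcode was placed by how many of 10 marker genes per class it contained, with at least 3 of its own list and 2 more than of any other. Lymphoid barcodes made up 36.9% of the wild-type library (572 barcodes, 95% interval 34.5 to 39.4) and 25% of the knockout library (455 barcodes, 23.04 to 27.1). Stromal barcodes, which carry collagen and other fibroblast genes, made up 20.2% (313) and 25.2% (458). For rods the shares were 10.5% (163) and 26.0% (473), and for RPE barcodes 14.4% (223) and 8.69% (158). Within the lymphoid class the wild type held 256 B and 316 T or NK barcodes, and the knockout 266 and 187. The wild-type library was thus richer in T and NK cells and the knockout library richer in rods, and a whole-library ratio carries this difference in makeup. Endothelial barcodes, a main cell type of the choroid, numbered 5 and 22. The 4 classes held 4594870 and 3520497 UMIs (lymphoid), 2229196 and 2920631 (stromal), 501238 and 1874715 (rod), and 550995 and 422010 (RPE), wild type before knockout. They come from the same pair of libraries and are not replicates of each other. At 2 months RPE barcodes made up 69.5% of the wild-type and 50.4% of the knockout library, and lymphoid barcodes 0.684% and 1.84%. Whole-library ratios at that age carry this makeup.

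Vldlr itself, the targeted gene, gave 75 UMIs (136 CPM, the count scaled to a total of 1000000 per class and library) in wild-type RPE barcodes and 4 UMIs (9.48 CPM) in knockout RPE barcodes, a log2 ratio of -3.68 (95% interval -5.76 to -2.43). In rods it stood at 154 UMIs (307 CPM) in the wild type and 391 UMIs (209 CPM) in the knockout, a log2 ratio of -0.56. Over the whole library its level was higher in the knockout, at 38.9 CPM against 25.04 CPM, beside the larger share of rod barcodes. Counts from outside the removed part of a gene check nothing about a knockout, and which part is removed is not known here; the RPE and rod values go the way of the label, and the whole-library value does not.

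Several properties of the libraries moved with the genotype and are given here because they touch results that follow. X- and Y-linked genes, which show whether the sexes were balanced, differed between the libraries. Xist, the RNA that coats the inactive X of female cells, stood at 234 CPM and 438 CPM in lymphoid barcodes and at 549 CPM and 1051 CPM in stromal barcodes (wild type, then knockout), but at 908 CPM and 815 CPM in rods. Ddx3y, a Y-linked RNA helicase, went the other way in stromal barcodes (65.0 CPM and 25.3 CPM) and was higher in knockout rods (7.98 CPM and 25.6 CPM). Rod genes stood higher outside rods in the knockout library: all 14 rod genes of a fixed list were higher in lymphoid barcodes (median log2 ratio 1.68) and in stromal barcodes (1.45), and 6 of 14 in rods (-0.06). Hemoglobin took 9.18% of UMIs of the knockout RPE class and 0.0563% of the wild-type RPE class, and 38422 of those 38748 knockout UMIs lay in 2 barcodes. The share of barcodes with at least 3 markers of a further class was 14.5% and 24% for lymphoid, 47.6% and 44.8% for stromal, 12.9% and 21.6% for rod, and 40.8% and 46.2% for RPE barcodes. Their part in the results was not tested.

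**Figure D1:**
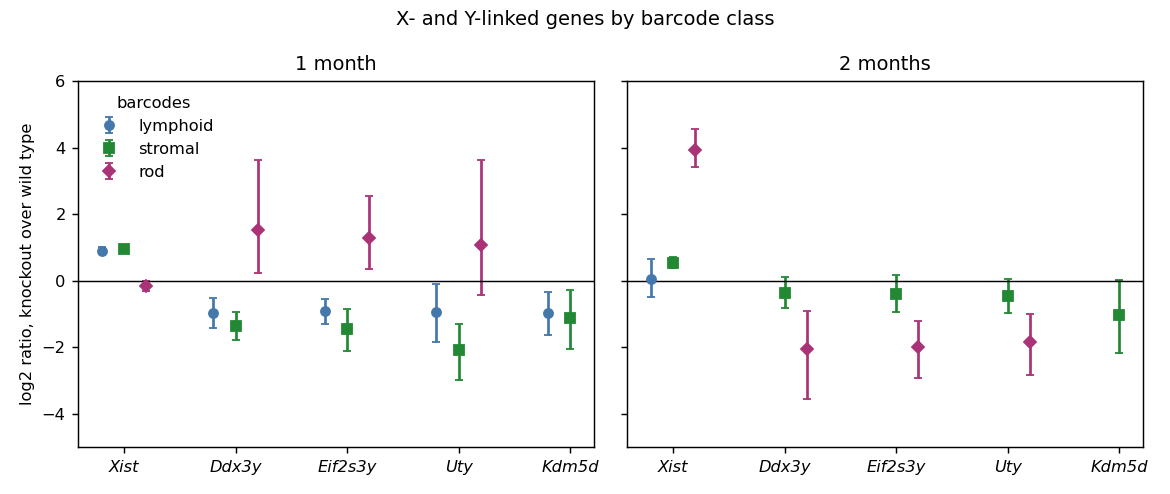
Log2 ratio of knockout over wild type (vertical axis) for Xist and 4 Y-linked genes in lymphoid, stromal and rod barcodes at 1 month (left) and 2 months (right). Points are ratios of summed UMIs and bars 95% counting intervals; genes under 30 UMIs over both libraries are not drawn. At 1 month Ddx3y lies at -1.36 in stromal and at 1.53 in rod barcodes.

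A gene counted as called when its CPM, after adding 0.5 counts to each sum, differed at least 2-fold, among genes with at least 30 UMIs over both libraries. In lymphoid barcodes 152 of 9683 genes were higher in the knockout (1.57%) and 154 lower (1.59%). In stromal barcodes 202 of 10851 genes were higher (1.86%) and 152 lower (1.4%). In rods 319 of 8028 genes were higher (3.97%) and 204 lower (2.54%). RPE barcodes, the class with the fewest UMIs in the knockout, had 108 of 3512 genes higher (3.08%) and 131 lower (3.73%). Over the whole library 988 of 14291 genes were higher (6.91%) and 328 lower (2.3%). Some calls rest on 1 barcode: leaving out genes with over 25% of their UMIs in 1 barcode of the higher library kept 318 higher rod genes (4.16%) but only 81 lower ones (1.06%). The RPE split moved as well, from 45.2% of calls higher to 68.6% when the median ratio was set to 0, a shift of -0.15, and to 66.1% when the hemoglobin-rich barcodes were left out.

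Few shifts recurred across cell types. A gene was counted as recurrent when it was called in the same direction in at least 3 of the 4 classes and when, in each class called, the higher library reached at least 0.25 of its own maximum over the classes, a guard against RNA that leaks from 1 class into all droplets. Of 7064 genes measured in at least 3 classes, 3 were higher in the knockout (0.0425%) and 0 were lower (0.0%). Without the guard 6 were higher (0.0849%). The 3 genes were Gm8797, Gm35082 and Plekha7, and Gm8797 was the only one of 2779 genes measured in all 4 classes that met the rule with the guard in every class (0.036%). Without the guard Hddc3 was called in every class as well. Plekha7 no longer met the rule when B barcodes alone, or T and NK barcodes alone, stood in for the lymphoid class. Its lymphoid UMIs are too few for both parts to reach the count minimum. The dropout therefore does not show that the shift was absent from either part.

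Gm8797 (ENSMUSG00000103034, GRCm38 chromosome 3) is a short gene of the ubiquitin family whose reading frame is annotated as protein-coding in GENCODE and as a pseudogene in RefSeq, so that its count may share reads with near-identical copies. In lymphoid barcodes it gave 36 UMIs in the wild type (7.84 CPM) and 505 in the knockout (143 CPM), a log2 ratio of 4.18 (95% interval 3.71 to 4.72). Stromal barcodes held 30 and 322 UMIs, which is 13.5 CPM against 110.3 CPM and a log2 ratio of 3.01 (2.49 to 3.63). For rods the counts were 3 and 307, which is 5.99 CPM against 164 CPM and a log2 ratio of 4.55 (3.21 to 7.06). The knockout level was thus of the same order in all 3 of these classes, and it was detected in 753 knockout barcodes against 91 wild-type barcodes. RPE barcodes held 5 and 71 UMIs, which is 9.07 CPM against 168 CPM and a log2 ratio of 4.09 (2.92 to 5.88). Macrophage barcodes, a class that did not enter the rule, held 6 and 46, a log2 ratio of 3.22. At 2 months, in libraries that the choice of genes did not use, Gm8797 gave 99 UMIs in the wild type (4.54 CPM) and 60 in the knockout (4.01 CPM). The 1-month knockout library therefore stood apart from the other libraries, which lay between 4.01 CPM and 9.15 CPM against 129.5 CPM.

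Gm35082 (ENSMUSG00000108866) is a long intergenic non-coding RNA on chromosome 7. It gave 1 UMI in wild-type lymphoid barcodes and 257 in knockout ones (73.0 CPM), a log2 ratio of 7.81 (5.90 to 13.70). Stromal barcodes held 0 and 95 UMIs, at least 24.2-fold higher in the knockout against a floor of 3 counts per class. Rods held 0 and 123 UMIs (at least 10.96-fold), and RPE barcodes 0 and 10 (at least 4.35-fold). The gene was therefore near-silent in every wild-type class and present in every knockout class, in 386 knockout barcodes in all. At 2 months it gave 0 UMIs in the wild type and 478 in the knockout, at least 232-fold higher. Unlike Gm8797, it separated the genotypes at both ages.

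Plekha7 (ENSMUSG00000045659, chromosome 7) encodes a protein of epithelial adherens junctions. Its counts were low: 9 and 25 UMIs in lymphoid (log2 ratio 1.81), 13 and 57 in stromal (1.70) and 4 and 48 in rod barcodes (1.53, 95% interval 0.23 to 3.62). RPE barcodes went the other way, with 16 and 5 UMIs, too few for the count minimum. At 2 months the whole-library level was 62.1 CPM in the wild type against 65.5 CPM in the knockout, a log2 ratio of 0.08. RPE barcodes made up 69.5% and 50.4% of these libraries. The value therefore does not show whether the shift of the other classes was present at 2 months.

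Among the genes that met the rule without the guard, Hddc3 was higher in all 4 classes. Hddc3 (chromosome 7) encodes the animal homologue of the bacterial enzyme that degrades the alarmone ppGpp. Its level was 3.05 CPM and 10.2 CPM in lymphoid, 13.5 CPM and 28.1 CPM in stromal, 11.97 CPM and 69.9 CPM in rod, and 18.2 CPM and 119 CPM in RPE barcodes, wild type before knockout, from 6 to 131 UMIs a class and library. At 2 months it was also higher, with 12.8 CPM against 42.8 CPM and a log2 ratio of 1.74. The others were Sqle, the squalene epoxidase of cholesterol synthesis, and Pde6g, a rod phosphodiesterase subunit. Pde6g stood at 7545 CPM and 7143 CPM in rods themselves and at 12.8 CPM and 46.6 CPM in lymphoid barcodes, higher outside rods like the 14 rod genes of the list.

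Relaxing the rule to 2 of 4 classes, a choice made after the data were seen, gave 10 genes higher (0.106% of 9406) and 9 lower (0.0957%). The lower genes included Trim12a, Trim34a and Pttg1, described below, as well as Ide, the insulin-degrading enzyme, and Kcnip3, a calcium-binding partner of potassium channels. Ide stood at 47.4 CPM and 22.7 CPM in lymphoid and at 65.3 CPM and 26.1 CPM in RPE barcodes, but at 56.7 CPM and 55.0 CPM over the 2-month libraries. Of the 10 higher genes 8 had the same direction over the whole library at 2 months and 3 were again at least 2-fold apart, and of the 9 lower genes 7 and 3. Among all genes of the 2-month libraries 72.2% had a ratio above 0 and 27.8% below, so that 8 of 10 higher genes is near the background. At least 2-fold higher were 9.78% and lower 1.7%. Sharing between classes was partial. Lymphoid and stromal barcodes shared 22 higher genes, 20.4% of the lymphoid and 22.7% of the stromal calls among genes measured in both, counted without the guard. With the guard 4 of the higher genes were shared by these classes, and 12 and 11 of the 14 rod genes of the list were themselves at least 2-fold higher there. Stromal and rod barcodes shared more with the guard, namely Gm8797, Gm35082, Plekha7, Zfp810 and 9330160F10Rik. Without the guard the lymphoid and stromal pair shared the most, and rods and RPE barcodes shared 1 lower gene (1.2% and 1.02%). Rods and RPE barcodes went in opposite directions for 19 genes that were lower in rods and higher in RPE. For 1 of these, Fcer1g, a receptor chain of myeloid cells, 85.5% of the wild-type rod UMIs and 91.8% of the knockout RPE UMIs lay in 1 barcode each.

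**Figure D2:**
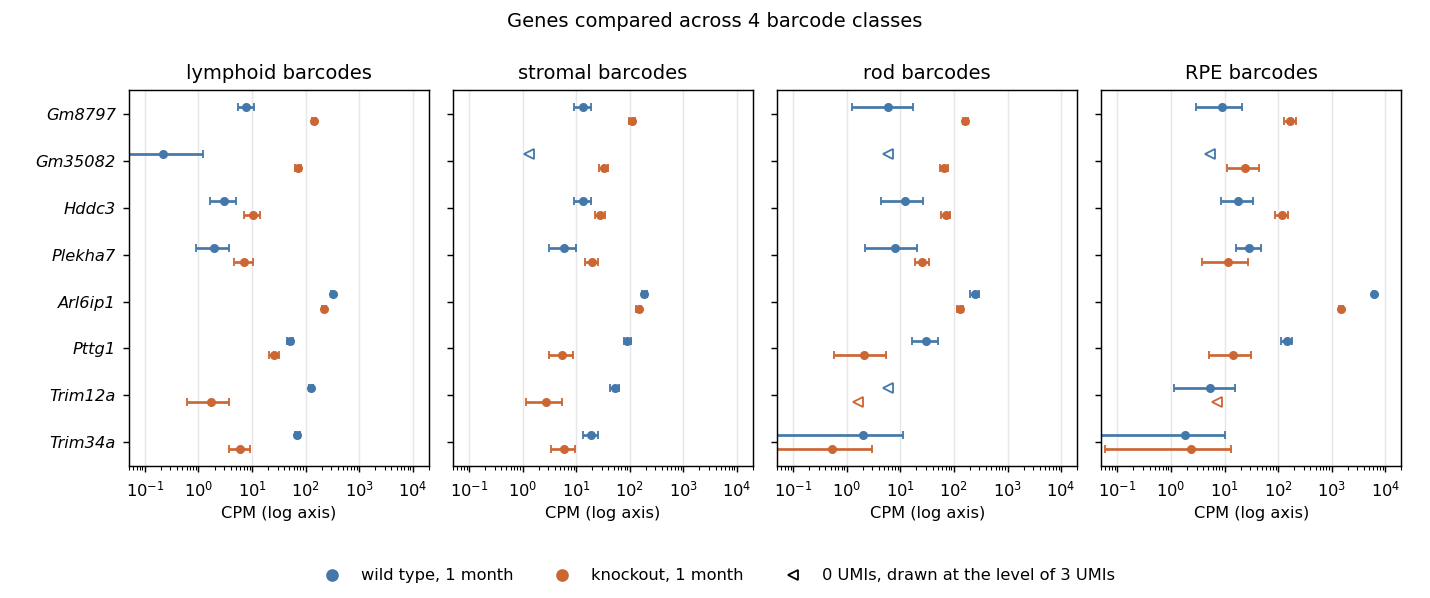
Level in CPM (horizontal log axis) of 8 genes in 4 barcode classes at 1 month, wild type in blue and knockout in orange. Points are summed UMIs over the class with Poisson 95% intervals, and open triangles mark 0 UMIs. Gm8797 lies between 5.99 and 13.5 CPM in the 4 wild-type classes and between 110.3 and 168 CPM in the 4 knockout classes.

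Whatever the size of the ratio, 10 of 2789 genes measured in all 4 classes, class markers included, had counting intervals beyond 0 on the same side in each. The 6 higher ones (0.215%) included Gm8797, Hddc3, Iqgap1, Rplp1 and Gm42418, and the 4 lower ones (0.143%) were Gas5, Arl6ip1, Ccl5 and mt-Nd2. Arl6ip1 encodes a protein that shapes the endoplasmic reticulum, and RPE barcodes held most of it. Its RPE level was 6051 CPM in the wild type (3334 UMIs) and 1505 CPM in the knockout (635 UMIs), a log2 ratio of -2.01 (-2.13 to -1.88). The ratio was -0.54 in lymphoid, -0.36 in stromal and -0.88 in rod barcodes, with 188 CPM and 147 CPM in the stromal class. At 2 months the RPE ratio was -1.93, from 4493 CPM and 1181 CPM. Gas5, a host gene of small nucleolar RNAs, was lower by smaller steps, from 583 CPM to 512 CPM in lymphoid and from 267 CPM to 178 CPM in RPE barcodes. Ccl5, a chemokine of T and NK cells, stood at 7365 CPM and 4409 CPM in lymphoid barcodes, beside 316 and 187 T or NK barcodes. In stromal barcodes it stood at 48.0 CPM and 25.3 CPM. In rods Ccl5 stood at 75.8 CPM and 31.5 CPM although 9 of 10 T and NK markers were higher there in the knockout, with summed levels of 29.9 CPM and 80.6 CPM. Over the whole libraries at 2 months the Ccl5 ratio was 0.86. T and NK barcodes made up 0.489% of the wild-type and 1.23% of the knockout library at that age. The ratio therefore does not show the direction within T and NK cells.

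The lower genes of lymphoid barcodes were led by the Trim cluster of chromosome 7. TRIM proteins are ubiquitin ligases, and those of this cluster belong to a rodent-expanded family related to the retroviral restriction factor TRIM5. Many are induced by interferon through a promoter element called ISRE. Promoters are shown because 5 genes of the cluster were lower in the knockout while others between them were not. RefSeq promoters of GRCm38.p6 (250 bases before to 50 bases after each annotated start) were searched on both strands for the ISRE core GAAANNGAAA, which 1131 of 32851 promoters hold (3.44%). It was found in 7 of the 12 genes searched that have a promoter in that table. Among the 7 is Trim21, which with Trim68 lies apart from the others (promoters from chr7:102565433 and chr7:102687278). Trim30b, which was lower in the knockout, holds no such motif, nor do Trim6, Trim30c, Trim34b and Trim68. The 30 bases around the motif follow for Trim5, Trim12a and Trim30d, which were nearly silent in the knockout, and for Trim34a, which was lower but not silent. They also follow for Trim12c and Trim30a, whose lymphoid counts were alike. The motif is in capitals as read on the gene's strand.
Trim34a, chr7:104244457-104244486, plus strand: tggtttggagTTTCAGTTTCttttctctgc
Trim5, chr7:104288136-104288165, minus strand: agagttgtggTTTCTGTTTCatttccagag
Trim12a, chr7:104315466-104315495, minus strand: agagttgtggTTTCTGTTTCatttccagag
Trim12c, chr7:104353359-104353388, minus strand: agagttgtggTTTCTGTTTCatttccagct
Trim30a, chr7:104465210-104465239, minus strand: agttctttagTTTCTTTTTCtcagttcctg
Trim30d, chr7:104507871-104507900, minus strand: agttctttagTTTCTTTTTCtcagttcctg
The motif begins 10 bases after the annotated start of Trim34a and Trim12a, and 29 to 49 bases before that of the other 4. Trim5 and Trim12a are identical over all 30 bases, as are Trim30a and Trim30d, and Trim12a and Trim12c share 28 of 30. These reference letters are a description. They do not differ between the near-silent Trim30d and the similar-level Trim30a, and the letters of the Vldlr-/- animals were not read.

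Trim12a gave 580 UMIs in wild-type lymphoid barcodes (126 CPM, in 328 barcodes) and 6 in knockout ones (1.70 CPM, in 6 barcodes), a log2 ratio of -6.10 (-7.66 to -5.08). B and T or NK barcodes showed it alike, with 226 and 3 UMIs in B and 354 and 3 in T or NK barcodes. Stromal barcodes held 116 and 8 UMIs of Trim12a, a log2 ratio of -4.17. Trim34a stood at 322 and 21 UMIs in lymphoid barcodes (70.1 CPM and 5.96 CPM, log2 ratio -3.52) and at 42 and 17 in stromal barcodes (-1.67). Trim5 gave 151 UMIs and 1 UMI, a log2 ratio of -6.27 (-12.17 to -4.35), and Trim30d 91 UMIs and 1 UMI, a log2 ratio of -5.55 (-11.44 to -3.61). Trim30b, a B-cell member here, had 54 and 10 UMIs. In contrast, Trim12c stood at 73.6 CPM and 72.7 CPM (log2 ratio -0.02, -0.26 to 0.22) and Trim30a at 79.0 CPM and 71.3 CPM (-0.15, -0.39 to 0.09). The cluster therefore did not move as a block: lower and similar-level genes alternate along it. At 2 months Trim12a had 309 and 5 UMIs over the whole library, Trim5 had 56 and 0, Trim30d 126 and 6, and Trim34a 111 and 19, the same directions as at 1 month. Trim34b, a close copy of Trim34a with few counts, went the other way: it gave 1 and 11 UMIs in lymphoid barcodes at 1 month and 0 and 24 over the 2-month libraries, at least 11.7-fold higher in the knockout. These genes are close copies, and reads that match several copies can be lost or assigned to 1 of them, so counts of single members are uncertain.

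**Figure D3:**
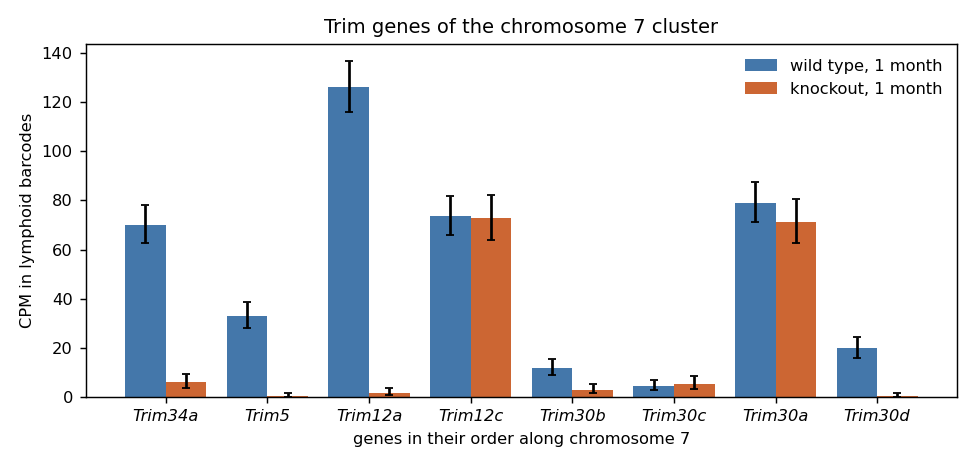
CPM in lymphoid barcodes at 1 month (vertical axis from 0) for Trim genes of the chromosome 7 cluster with at least 30 UMIs, in their order along the chromosome. Bars are summed counts with Poisson 95% intervals. Trim12a stands at 126 CPM in the wild type and 1.70 CPM in the knockout, while Trim12c stands at 73.6 and 72.7 CPM.

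Chromosome 7 held 12 of the 32 lymphoid genes that were at least 4-fold apart and spread over barcodes (37.5%), against 7.45% of the genes measured there. Genes 4-fold apart were 0.335% of the 9554 that were measured and spread over barcodes. Taking genes that rest on 1 barcode as well, the share was 26.5% (13 of 49). The 12 lay on both sides: 7 were lower, among them Apobr, Eps8l1 and Gvin1 besides the 4 Trim genes, and 5 were higher, namely Gdpd3, Gm35082, Gprc5b, Inppl1 and Fam57b. Over the whole library at 2 months 6 of the 7 lower genes were again lower, all 6 at least 2-fold, against 27.8% and 1.7% of all genes. Of the 5 higher ones 4 were again higher, against 72.2% of all genes, and 2 at least 2-fold. On other chromosomes 5 of 7 lower genes were measured, and 2 were again lower. Of 13 higher ones 10 were measured, and 9 were again higher, 2 of them at least 2-fold. In the other classes the share was lower. In stromal barcodes, where 0.343% of genes were at least 4-fold apart, chromosome 7 held 4 of 37 (10.8%) and so did chromosomes 2, 6, 11 and 12. In rods, with 0.563% of genes 4-fold apart, it held 5 of 43 (11.6%), and chromosome 4 held 6. In RPE barcodes, with 0.321%, it held 2 of 11 (18.2%), as did chromosome 14. The chromosome held 7.42%, 6.95% and 7.48% of the genes measured in these 3 classes. The Vldlr gene lies on chromosome 19. The chromosome comparison was chosen after the lists of genes had been seen.

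**Figure D4:**
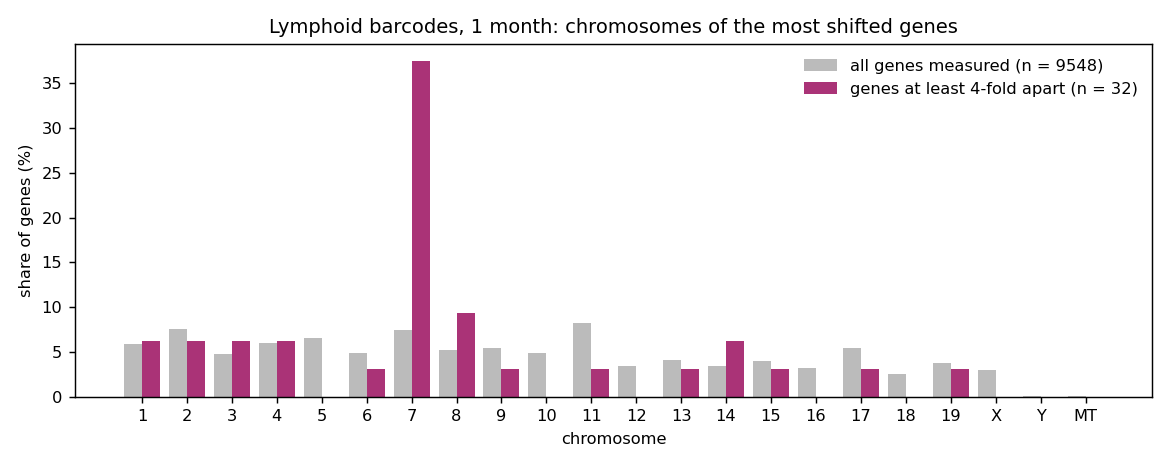
Share of genes by chromosome (vertical axis, %) in lymphoid barcodes at 1 month, for all genes measured and spread over barcodes (grey) and for the 32 of them at least 4-fold apart (purple). Chromosome 7 holds 37.5% of the latter and 7.45% of the former.

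Gdpd3, also on chromosome 7, was the higher gene of lymphoid barcodes whose counting interval lay farthest from 0, followed by Gm35082. It encodes a lysophospholipase D, an enzyme that makes lysophosphatidic acid. Lymphoid barcodes gave 5 UMIs in the wild type (1.09 CPM) and 671 in the knockout (191 CPM, in 194 barcodes), a log2 ratio of 7.32 (6.22 to 9.08). Macrophage barcodes held 51 and 275 UMIs of Gdpd3 (52.4 CPM and 369 CPM), so that it was present in wild-type macrophages and nearly absent from wild-type lymphocytes. Stromal barcodes held 4 and 27 and RPE barcodes 0 and 19. At 2 months the whole library gave 46 and 322 UMIs, a log2 ratio of 3.34.

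Further lymphoid genes had shifts of several fold. 4930597A21Rik, a non-coding gene, was confined to B barcodes within the lymphoid class, with 1 UMI in the wild type and 159 in the knockout (in 81 barcodes), a log2 ratio of 6.66 (4.74 to 12.55). Gm16867, another predicted gene, gave 65 and 0 UMIs in lymphoid barcodes, at least 16.6-fold lower in the knockout, and 117 and 0 over the 2-month libraries. Ctse, the aspartic protease cathepsin E, was higher, at 9.58 CPM and 49.1 CPM, from 44 and 173 UMIs. Xcl1, a chemokine of NK and activated T cells, stood at 509 and 33 UMIs, but 36.5% of the wild-type UMIs came from 1 barcode. Siglech, Igha and Jchain, genes of plasmacytoid and plasma cells, were higher with 1 knockout barcode for each gene holding 97.5%, 95.6% and all of their UMIs.

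By list, MHC class I genes, which present peptides to T cells, were lower in all 16 measured members in lymphoid barcodes (median log2 ratio -0.25, against -0.01 over all genes), 12 of them with intervals below 0, as had 9.27% of all lymphoid genes. Within B barcodes 14 of 16 were lower (median -0.36), 10 with intervals below 0. Within T and NK barcodes 14 of 16 were lower (median -0.15), 7 with such intervals. Of all 9683 lymphoid genes 4748 had a ratio above 0. In lymphoid barcodes H2-K1 stood at 1907 CPM and 1513 CPM and B2m, the shared light chain, at 1929 CPM and 1529 CPM. MHC class II genes were higher in 11 of 11 members over lymphoid barcodes (median 0.40), beside the larger B share of the knockout. Within B barcodes 3 of 11 were higher (median -0.06), at summed levels of 31150 CPM and 31090 CPM. Within T and NK barcodes 5 of 7 measured members were higher (median 0.66), at summed levels of 139 CPM and 289 CPM. Interferon response genes had 11 of 33 members higher and 22 lower (median -0.13), with none 2-fold apart, while the Trim genes above were. Cell cycle genes were lower in 21 of 24 members (median -0.44), for example Top2a, the topoisomerase of dividing cells, at 40.3 CPM and 19.9 CPM in lymphoid barcodes, although 26.5% and 31.4% of its UMIs lay in 1 barcode each. The cell cycle median was nearer to 0 within B barcodes (-0.14, 9 of 12 lower) and within T and NK barcodes (-0.26, 21 of 24 lower).

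Among the higher genes of stromal barcodes were several of secreted proteins. Serpina3n, a secreted protease inhibitor of the acute phase, gave 31 UMIs in the wild type (13.9 CPM) and 211 in the knockout (72.2 CPM), a log2 ratio of 2.36 (1.83 to 2.97). It is a member of a multigene family and its count may be shared with copies. Over the 2-month libraries Serpina3n was higher as well, with 15.5 CPM and 183 CPM. Clec3b, the plasminogen-binding tetranectin, stood at 50.2 CPM and 207 CPM (log2 ratio 2.03) and at 20.8 CPM and 211 CPM in 2-month stromal barcodes. Pi16, which marks fibroblasts of the adventitia, was at 235 CPM and 833 CPM, and its UMIs lay in 56 and 92 barcodes. Rbp4, the plasma carrier of retinol, had 21 and 208 UMIs (log2 ratio 2.89), in 13 and 104 barcodes. Sfrp4, a Wnt antagonist, had 27 and 378 UMIs but in 5 and 26 barcodes, and Gpha2, a glycoprotein hormone subunit, 3 and 99 UMIs in 2 and 7 barcodes, with 65.7% of the knockout UMIs in 1. The last 2 thus rest on few barcodes, unlike Rbp4.

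Pttg1 led the lower genes of stromal barcodes. It encodes securin, which keeps sister chromatids from being separated before anaphase. Stromal barcodes gave 202 UMIs in the wild type (90.6 CPM, in 133 barcodes) and 16 in the knockout (5.48 CPM, in 13), a log2 ratio of -4.01 (-4.88 to -3.31). RPE barcodes held 80 and 6 UMIs of Pttg1 (-3.25, -4.84 to -2.17) and rods 15 and 4, under the count minimum. Lymphoid barcodes held 234 and 91, a log2 ratio of -0.97 that lies just inside 2-fold, so that the gene does not meet the rule of 3 classes. With B barcodes alone (60 and 28 UMIs, -1.16) in place of lymphoid ones it does. At 2 months Pttg1 had 1794 and 45 UMIs over the whole library and 1287 and 8 in RPE barcodes. Pttg1 was therefore lower in all 4 classes and at both ages, and by the least in lymphoid barcodes.

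Further stromal genes were lower. Nr4a2, an orphan nuclear receptor induced by stimulation, stood at 136 CPM and 20.2 CPM (304 and 59 UMIs, log2 ratio -2.75). Avpr1a, the vasopressin receptor, had 81 and 13 UMIs (-2.98), and at 2 months 22 and 8. Alkal2, a ligand of the ALK receptor, had 791 and 254 (-2.03), and Sox11, a transcription factor, 221 and 62 (-2.22). For Alkal2 the 2-month stromal ratio was 0.08, and for Sox11 the counts were 12 and 12, so that neither shift was seen there.

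Immediate-early genes, the transcription factors and phosphatases induced within minutes of a stimulus, digestion of tissue included, were lower in 22 of 24 members in stromal barcodes, 7 of them at least 2-fold and 21 with intervals below 0 (median log2 ratio -0.69, against 0.03 over all genes). Of all stromal genes 7.57% had intervals below 0 and 1.4% were at least 2-fold lower. Fos stood at 3454 CPM and 2106 CPM (7700 and 6152 UMIs), Egr1 at 3184 CPM and 2194 CPM, and Jun at 2476 CPM and 1619 CPM. In lymphoid barcodes 13 of 24 were higher (median 0.05), and in rods 18 of 19 were lower (median -0.94). Of the 4 measured in RPE barcodes 3 were higher, 2 of them at least 2-fold (median 0.79). Many of these members rest on 1 barcode. Among genes spread over barcodes 6 rod members remained, 5 lower and 1 of them at least 2-fold (median -0.22). In RPE barcodes 2 remained, 1 higher and 1 lower. At 2 months stromal Fos went the other way, with 84.6 CPM and 290.4 CPM. The digestion and the time to loading were not compared between libraries, and their part was not tested.

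Interferon response genes were lower in 26 of 30 members in stromal barcodes, 6 of them at least 2-fold and 20 with intervals below 0 (median -0.58). Over all stromal genes 1.4% were at least 2-fold lower and 7.57% had intervals below 0. Isg15, a ubiquitin-like modifier, stood at 138 CPM and 60.3 CPM (308 and 176 UMIs, log2 ratio -1.20), and Ifit3, which binds viral RNA complexes, at 189 CPM and 74.0 CPM (-1.35). Rsad2, the antiviral enzyme viperin, had 29 and 4 UMIs. At 2 months the stromal ratio was -1.03 for Isg15 and -0.18 for Ifit3. Cholesterol synthesis and uptake genes were higher in 15 of 20 members (median 0.45), 4 of them at least 2-fold, among them Sqle with 8 and 29 UMIs. Of all 10851 stromal genes 5934 had a ratio above 0, and 1.86% were at least 2-fold higher. Glycolysis genes were higher in 16 of 17 members by small amounts (median 0.26), only 2 of them with intervals above 0, against 10.0% of all stromal genes. Extracellular matrix genes were higher in 32 of 44 (median 0.23), and lower in the median (-0.12) when each barcode was thinned to 1000 UMIs. Col1a1, the main fibrillar collagen, stood at 4148 CPM and 4463 CPM, and Col3a1 at 2216 CPM and 2529 CPM. Both, like several others of the matrix list, are also markers by which stromal barcodes were chosen. All 10 stromal markers were higher in knockout stromal barcodes, so the matrix count is not independent of the class rule. The 13 mitochondrially encoded transcripts were all lower in stromal barcodes (median -0.16).

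In rods 44 genes were at least 4-fold higher in the knockout and 45 lower. Among genes spread over barcodes 43 were higher and 0 lower, but 35 of the 43 had at most 3 UMIs in the wild type, whose rod class held 501238 UMIs against 1874715. A gene could therefore reach the count minimum through the knockout library alone. Rnf121, a ubiquitin ligase of the endoplasmic reticulum and Golgi on chromosome 7, gave 11 UMIs in the wild type (21.95 CPM) and 322 in the knockout (172 CPM, in 203 barcodes), a log2 ratio of 2.91 (2.11 to 3.98). At 2 months rods held 11 and 40 UMIs of Rnf121, a log2 ratio of 1.84. Sox30, a transcription factor known from the testis, had 1 and 90 UMIs, a log2 ratio of 4.01 (2.07 to 9.91), and 3 and 39 at 2 months. Rwdd4a had 20 and 370 (2.27), and Scd2, a desaturase that makes monounsaturated fatty acids, 12 and 232 (2.31). For Rwdd4a the 2-month ratio was 1.80, and for Scd2 it was 0.61. Uaca had 0 and 40 UMIs at 1 month, at least 3.57-fold higher, and 3 and 63 at 2 months. Tusc3, a subunit of the oligosaccharyltransferase complex, was lower, at 162 CPM and 60.3 CPM (81 and 113 UMIs), and again at 2 months, at 205 CPM and 97.4 CPM. By contrast Sag, the rod arrestin of phototransduction, stood close, at 10460 CPM and 11240 CPM. The lower rod genes whose intervals lay farthest from 0, Lyz2, Plac8 and Chil3, are genes of myeloid cells. For these 96.6%, 95.5% and all of the wild-type UMIs came from 1 barcode each.

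RPE barcodes were shallow, with medians of 2087 and 1961 UMIs, and fewer genes were measured there. Trnp1, a nuclear protein that affects chromatin, gave 1 UMI in the wild type and 36 in the knockout (in 22 barcodes), a log2 ratio of 4.99 (2.98 to 10.90), and 52 and 534 at 2 months. Cdhr1, a cadherin best known from photoreceptor outer segments, stood at 65.3 CPM and 533 CPM (36 and 225 UMIs, log2 ratio 3.01), and at 83.5 CPM and 458 CPM at 2 months. A2m, the protease inhibitor alpha-2-macroglobulin, was at 280 CPM and 626 CPM, with 18.9% of the knockout UMIs in 1 barcode. Besides Vldlr, Arl6ip1 and Pttg1, the lower genes included Rab10, a GTPase of membrane traffic, with 43 and 8 UMIs (-1.97), and Bst2, which tethers budding viruses, with 103 and 29 (-1.43). At 2 months Rab10 stood at 66.4 CPM and 71.1 CPM and Bst2 at 137 CPM and 91.4 CPM, so that the former was not lower there. Lyz2 and Plac8 were higher by the interval rule in RPE barcodes, with 96.9% and 98.4% of the knockout UMIs in 1 barcode.

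Mitochondrial energetics of the RPE is named in the series title, and genes of the respiratory chain were lower in that class at 1 month. Of the nuclear genes, 33 of 37 members of complex I were lower (median log2 ratio -0.23), 9 of 9 of complex III (-0.44), 10 of 11 of complex IV (-0.36) and 15 of 16 of complex V, the ATP synthase (-0.38), none at least 2-fold, against a median of -0.10 over all 3512 genes. Of those 3512 genes 1475 had a ratio above 0. Cox4i1 stood at 1241 CPM and 964 CPM and Atp5b at 706 CPM and 557 CPM. All 13 mitochondrially encoded transcripts were lower too (median -0.57), for example mt-Nd1 at 1715 CPM and 936 CPM and mt-Co1 at 4243 CPM and 2744 CPM. Without the 2 hemoglobin-rich barcodes, a setting chosen after the data were seen, the medians were -0.08, -0.30, -0.22, -0.24 and -0.43 in the same order. Leaving these barcodes out also lowers the knockout total to which all RPE genes are scaled. These medians are therefore not to be set against the -0.10 over all genes, which includes those barcodes. For complex III the median was 0.17 when each barcode was thinned to 1000 UMIs. Fatty acid oxidation genes were lower in 14 of 19 members (median -0.52), 3 of them at least 2-fold, as were 3.73% of all RPE genes. Among the 3, Hadha, a subunit of the trifunctional protein, had 63 and 20 UMIs and Acadm, the medium-chain dehydrogenase, 57 and 19. Proteasome genes, a list with no link to respiration, were also lower in 30 of 30 members (median -0.27). In the other classes the complexes stayed within 0.1 of 0, apart from the encoded transcripts (-0.16 in stromal and -0.13 in rod barcodes, 0.05 in lymphoid).

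**Figure D5:**
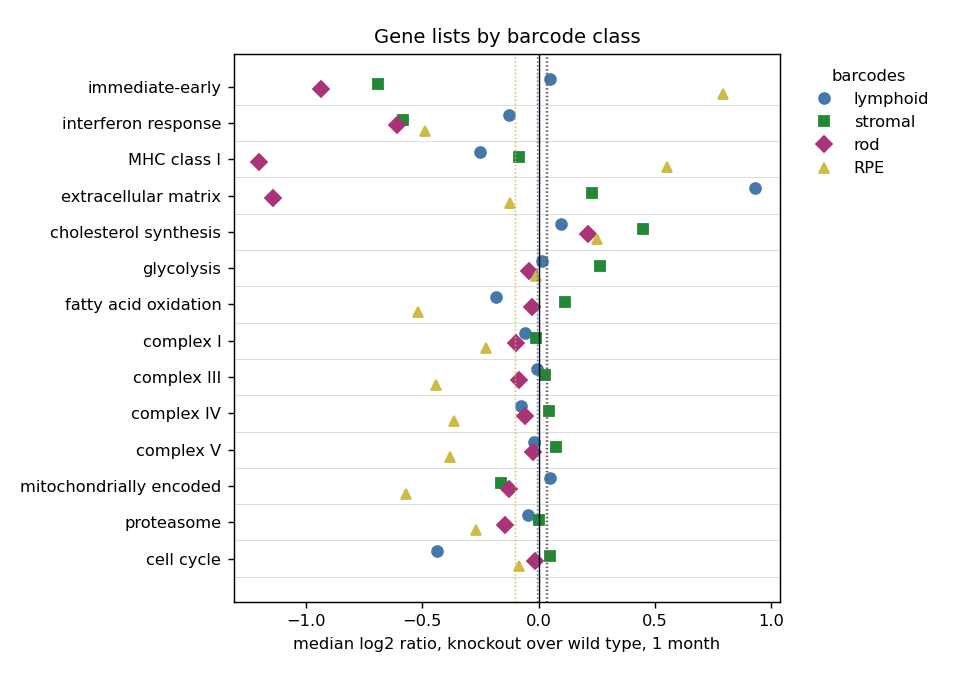
Median log2 ratio of knockout over wild type (horizontal axis) of 14 gene lists in 4 barcode classes at 1 month, for lists with at least 4 measured members. Dotted lines are the medians over all genes of each class, between -0.10 and 0.04. Immediate-early and interferon genes lie at -0.69 and -0.58 in stromal barcodes, and the respiratory complexes between -0.23 and -0.44 in RPE barcodes.

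Over the whole library the genes whose intervals lay farthest from 0 followed rare cells as much as common ones. Tpsb2 and Mcpt4, proteases of mast cells, gave 546 and 0 and 713 and 1 UMIs, and 66.3% and 57.5% of the wild-type UMIs lay in 1 barcode each. Retnla, a secreted protein of alternatively activated macrophages, had 425 and 2 UMIs, with 61.9% in 1 wild-type barcode. Among the higher genes were Gm35082 (2 and 537 UMIs) and 4930597A21Rik (1 and 165), which were spread over 386 and 87 knockout barcodes, and Igha, which was not.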

How the data were processed

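The deposited values are raw UMI counts per gene and barcode, with no normalization, per the file headers, which name Cell Ranger 6.0.2 for the 1-month and 7.0.1 for the 2-month libraries. Cell Ranger 3.0, Seurat 4.0 and mm9 stand in the submitters' processing notes. The counting of intronic reads is not stated in the sources used here. Gene positions come from GENCODE release 21 on GRCm38, matched by identifier for 32158 of 32285 genes.

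Barcodes that had 300 or more genes and no more than 30% mitochondrial UMIs were classed by detected markers. No doublet caller was run. UMIs were summed per class and library, and 10383277 (wild type) and 10752014 (knockout) were kept at 1 month. Ratios of CPM had 0.5 counts added, with exact conditional binomial 95% intervals (scipy 1.17.1). Shares have Clopper-Pearson intervals. The calculation was tested on simulated data. The libraries compared share 0 barcodes.

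The genes compared and the gene lists were chosen with earlier results of these data known. Named genes are the recurrent ones, the 3 per direction and class whose interval lies farthest from 0, members of the lists by UMIs and interval, Vldlr and sex-linked genes. The chromosome 7 genes, those spread over barcodes, Gdpd3 in macrophages and those with intervals beyond 0 in all 4 classes were added after their values were seen. Alternatives changed the filters, count minimum, class rule, depth, scaling and counts added. Some genes that these rules select are not reported here.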

Additional observations from a re-analysis of the deposited data

Results flagged for a closer look

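Several ratios changed sign between classes or ages. None of these differences was tested. Xist had a log2 ratio of 0.94 in stromal and -0.16 in rod barcodes at 1 month, and 3.94 in rods at 2 months. Ddx3y lay at -1.36 in stromal and 1.53 in rod barcodes at 1 month and at -2.05 in rods at 2 months, and Eif2s3y, a Y-linked translation factor gene, at -1.47, 1.28 and -1.99. Over the whole library the 1-month ratio of Gm8797 was 3.82 and the 2-month ratio -0.18, and those of Vldlr were 0.63 and -2.06.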

How the results depend on the processing

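No paired analysis was possible because each group is 1 library, and no replicate could be left out. Counts of genes at least 2-fold apart moved most with the count minimum: with 10 UMIs they were 2095 in the whole library, 899 lymphoid, 880 stromal, 1273 rod and 1045 RPE, and with 100 UMIs 783, 78, 106, 64 and 23, against 1316, 306, 354, 523 and 239. With each barcode thinned to 1000 UMIs, which leaves fewer genes to measure, they were 861, 151, 196, 183 and 68. B barcodes alone gave 202. Recurrent genes numbered 1 with at least 100 UMIs, 6 with no guard, 12 at 1.5-fold (7 higher, 5 lower) and 19 with 2 of 4 classes, against 3. Pttg1 was recurrently lower with thinning, with B barcodes alone and at 1.5-fold. Plekha7 dropped out with thinning, with 100 UMIs, with B or with T and NK barcodes alone and at 3-fold, and Gm35082 with thinning and with 100 UMIs. With at least 1000 genes per barcode the lymphoid share was 46.4% in the wild type and 31.4% in the knockout, the rod share 7.89% and 23.2%, the RPE share 6.45% and 3.62%, and the knockout stromal share 28.7%. The split of calls moved as well: 39.9% of rod calls were higher with 2 counts added (149 higher, 224 lower), against 61.0%, and 79.7% among genes spread over barcodes. Medians that changed sign included complex III in RPE (0.17) and matrix in stromal barcodes (-0.12) with thinning, and a list of lipoprotein receptor genes in rods (0.029, from -0.40) without genes resting on 1 barcode. That filter, which leaves few members, also turned interferon genes in rods (0.01), MHC class I in RPE (-0.33) and matrix in lymphoid barcodes (-0.165); Lyz2 in RPE was at -0.33 with 4 markers and a lead of 3. The cause was not tested. Of 454 values of single genes under alternatives 434 stayed within their interval, and of 344 list medians 312 did not move. Gm8797 was recurrent in every setting tried. RPE values rest on at most 550995 UMIs a library, and every ratio rests on 1 library a side.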
